A study of Mus musculus with 9 samples.

Results

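Prox1, Onecut1, Onecut2, Hnf4a and Hnf4g encode transcription factors that liver, gut and pancreas share. They were chosen by symbol from a list of names, with no value of these data in the rule, and all 5 were found among the 33212 rows of the deposited gene count table. The data are poly-A RNA-seq libraries of αTC1 cells, a glucagon-producing line derived from mouse pancreatic alpha cells, grown in low-glucose medium. In 5 libraries the cells had received the solvent DMSO for 7 days and in 4 libraries 4 µM EPZ011989 for 7 days. EPZ011989 inhibits EZH2, the enzyme of the Polycomb repressive complex PRC2 that methylates histone H3 at silent genes. The single comparison, EPZ011989 against DMSO, asks what inhibition of EZH2 did to transcript levels in 1 cell line. The line comes from a pancreatic tumour driven by the large T antigen under the glucagon promoter, so it models transformed alpha cells. Libraries are labelled as biological replicates with nothing on separate cultures, and the spread behind each p-value may thus be technical.

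HNF4A and its paralog HNF4G are nuclear receptors that bind DNA as dimers and keep lipid, glucose and brush border genes active in hepatocytes and enterocytes. HNF4A is also needed in islets, where inherited loss of 1 copy causes diabetes of the young. ONECUT1 (also called HNF6) and its paralog ONECUT2 bind DNA through a cut domain and a homeodomain. ONECUT1 acts in pancreatic progenitors, where it activates Neurog3, and is switched off in mature endocrine cells. PROX1 is a homeodomain factor of pancreatic progenitors, hepatoblasts and lymphatic endothelium, and in adult islets it is kept in alpha cells at a higher level than in beta cells.

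Only Prox1 and Onecut2 were expressed in αTC1 cells at a level that could be tested, and neither was called as changed by EPZ011989. Hnf4a and Hnf4g were at or near the detection limit in both groups, and Onecut1 had a count of 0 in all 9 libraries. Prox1 went from 66.0 ± 7.86 CPM (TMM-scaled counts per 1000000 counts, mean ± SD, n = 5) in DMSO to 72.5 ± 20.2 CPM (n = 4) with EPZ011989, and Onecut2 from 43.5 ± 5.88 to 51.2 ± 24.3 CPM. Both differences reversed in sign when 1 library, EPZ011989 replicate 2, was left out. Around them, a transcript antisense to Prox1 and the paralog Prox2 rose, and the islet gene Tmem27 fell to 0.214 times its DMSO level. The islet genes Kcnj11 and G6pc2 fell less, to 0.817 and 0.824 times. The calls of G6pc2 and of the antisense transcript were each lost in at least 1 fit that left out a single library.

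The genes differ in where they lie and in the letters before their starts. These are shown for Hnf4a, Prox1 and Onecut1 (RefSeq, GRCm38.p6, the 250 bases before the start, 5′ to 3′ on the gene's strand). Promoters of Onecut2 are not reported here and Hnf4g had no entry, so neither enters the CpG counts and motif matches given for members. Hnf4a has a pair of promoters, an upstream one known as P2, used in pancreas, and a downstream one known as P1, used in liver, and gene counts do not separate their transcripts. Only P2 is printed. Capitals in the Hnf4a line mark the match to the letters ATTGAT (core of ONECUT sites), which lies on the other strand and so appears as ATCAAT. Capitals in the Prox1 and Onecut1 lines mark CpG dinucleotides, which are dense in the CpG islands where Polycomb complexes are known to sit.
Hnf4a P2, chr2:163506607-163506856, plus strand: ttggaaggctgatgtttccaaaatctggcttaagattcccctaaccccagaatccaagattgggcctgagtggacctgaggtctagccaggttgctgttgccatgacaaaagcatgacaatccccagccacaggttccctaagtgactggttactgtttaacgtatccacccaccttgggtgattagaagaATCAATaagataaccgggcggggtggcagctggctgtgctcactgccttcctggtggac
Prox1, chr1:190170828-190171077, minus strand: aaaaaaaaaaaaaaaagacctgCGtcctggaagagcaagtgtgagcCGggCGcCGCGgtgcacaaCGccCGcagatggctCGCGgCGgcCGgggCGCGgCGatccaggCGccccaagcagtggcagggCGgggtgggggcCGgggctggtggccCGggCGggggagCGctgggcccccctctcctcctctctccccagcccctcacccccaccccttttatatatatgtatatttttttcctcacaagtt
Onecut1, chr9:74861671-74861920, plus strand: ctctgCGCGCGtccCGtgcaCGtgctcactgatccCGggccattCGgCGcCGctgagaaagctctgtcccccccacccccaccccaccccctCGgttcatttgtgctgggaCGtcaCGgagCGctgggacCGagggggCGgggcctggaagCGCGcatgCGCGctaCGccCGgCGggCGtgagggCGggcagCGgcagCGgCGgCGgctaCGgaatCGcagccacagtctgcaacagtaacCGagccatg

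The Hnf4a windows held 3 CpG dinucleotides at P2 and 4 at P1, against a median of 6 over all 32851 promoter windows of the same length. The Prox1 window shown held 20, more than 82.1% of all windows, and a second Prox1 start downstream held 11. The Onecut1 window held 31, more than 94.8% of all windows. CpG-dense starts belonged both to the most abundant of the 5 genes and to the one with no count at all. In the windows of Hnf4a, Prox1 and Onecut1 the ONECUT letters were found once, in P2, and they occur in 6.72% of all windows. The HNF4 motif CAAAGTCCA and the DR1 repeat of nuclear receptors were not found in these windows, and they occur in 0.384% and 0.0335% of all windows. Both strands were searched, the single match overlaps no other, and a match is a description of letters only.

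Library depth lay between 60274140 and 74651782 deposited counts. With edgeR, 24.1% of the 14754 genes tested were called at an adjusted p under 0.05, 16.2% as higher and 7.96% as lower with EPZ011989 (2388 and 1174 genes, against 2735 and 776 with upper-quartile scaling). Groups did not overlap for 16.1% of genes in the higher and 8.77% in the lower direction. Markers of alpha cells were abundant. Gcg, which encodes glucagon, had 19280 ± 804 CPM in DMSO against 18633 ± 2338 CPM in EPZ011989 libraries, and the summed level of 4 alpha cell markers (Gcg, Ttr, Irx1 and Irx2) was 20324 to 22642 CPM in DMSO and 16662 to 23039 CPM with EPZ011989, with 0 of 4 called. Of 5 beta cell markers, Ins1 and Pdx1 were at 0 in every library, the sum was 0.457 to 1.65 and 5.42 to 8.06 CPM, and both tested genes (Ins2 and Mafa) rose.

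Prox1 (chromosome 1, 190118035 to 190170714, minus strand, GRCm38) was the most abundant of the 5 genes. In DMSO replicates 1 to 5 it was at 75.01, 64.9, 70.7, 65.6 and 54.1 CPM. In EPZ011989 replicates 1 to 4 it was at 68.7, 102, 64.0 and 55.7 CPM. EPZ011989 replicate 2 stood above every DMSO library, and the other 3 lay within the DMSO range. The log2 fold change was 0.14 ± 0.16 (SE), with an approximate 95% interval on the fold change from 0.858 to 1.41 (adjusted p = 0.615, edgeR). Changes as large as either end of that interval are not excluded by these libraries.

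Onecut2 (chromosome 18, 64340020 to 64400987, plus strand) was at 50.5, 40.6, 48.2, 42.3 and 36.0 CPM in DMSO replicates 1 to 5. In EPZ011989 replicates 1 to 4 it was at 45.8, 86.4, 42.2 and 30.6 CPM. The EPZ011989 libraries thus held both the highest and the lowest value of all 9, replicates 2 and 4, and the groups overlapped. The log2 fold change was 0.24 ± 0.25 (SE), with an approximate 95% interval on the fold change from 0.807 to 1.72 (adjusted p = 0.561, edgeR). Of the 2 genes tested, 0 were called, against 24.1% of all genes, 0 had an unadjusted p under 0.05, and 0 were called by DESeq2 or limma-voom.

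**Figure D1:**
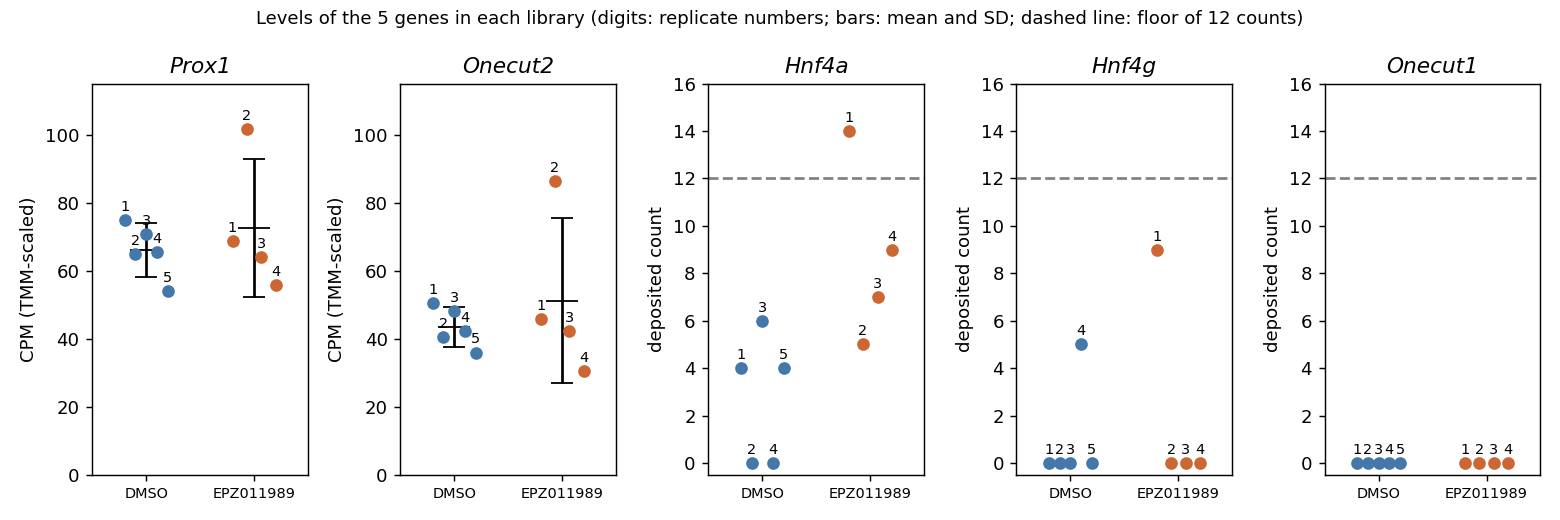
Each point is 1 library with its replicate number; Prox1 and Onecut2 are in TMM-scaled CPM with group mean and SD, and Hnf4a, Hnf4g and Onecut1 in deposited counts with a dashed line at the floor of 12 counts. EPZ011989 replicate 2 is the highest library for Prox1 (102 CPM) and Onecut2 (86.4 CPM), and a single Hnf4a value lies above the floor.

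The direction of both differences turned on EPZ011989 replicate 2. Without it, the log2 fold change of Onecut2 was -0.15 (adjusted p = 0.456, edgeR) and that of Prox1 -0.081 (adjusted p = 0.590), so the sign reversed for both. Without EPZ011989 replicate 4 the values were 0.39 for Onecut2 (adjusted p = 0.198) and 0.22 for Prox1 (adjusted p = 0.320). With replicates 2 and 4 both left out they were 0.02 and 0.01. No setting that was tried called either gene.

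**Figure D2:**
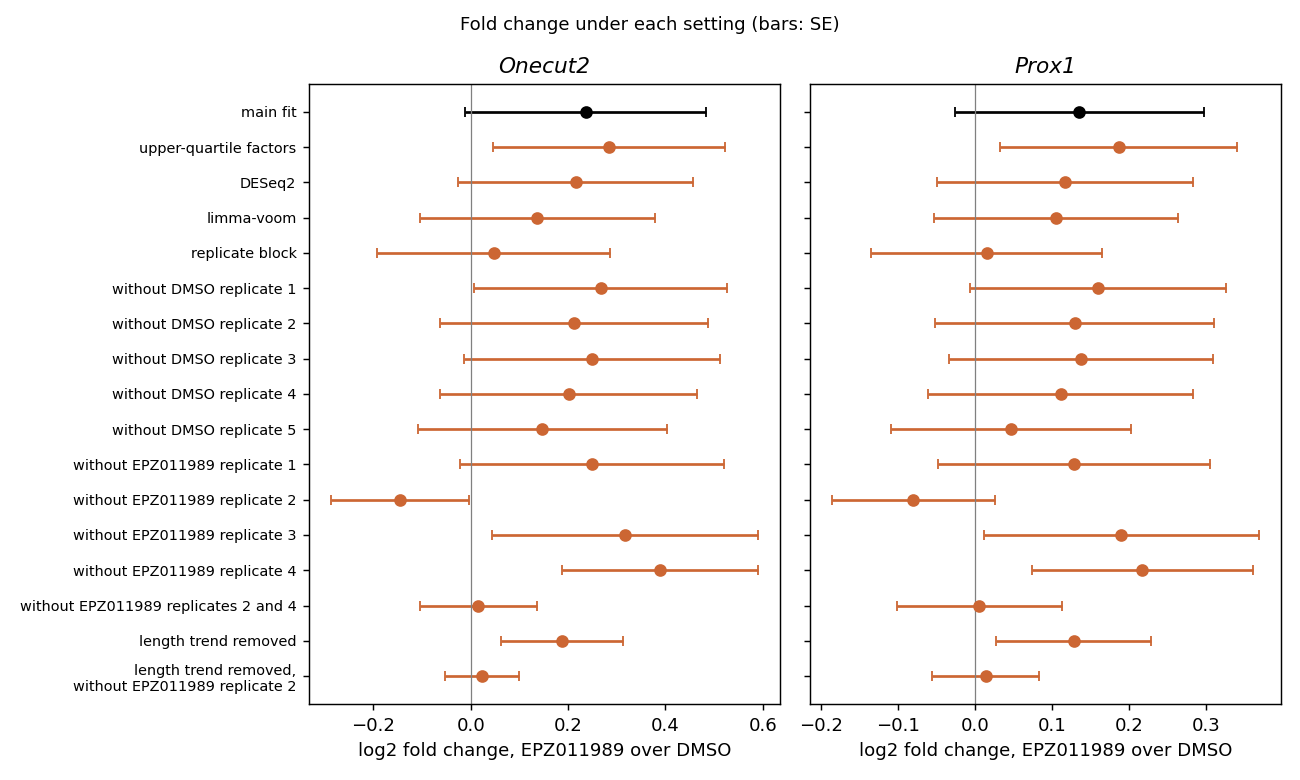
Log2 fold change of Onecut2 and Prox1, EPZ011989 over DMSO, with SE, in the fit reported (black) and under other settings (orange). Only the fit without EPZ011989 replicate 2 lies below 0, at -0.15 for Onecut2 and -0.081 for Prox1.

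The libraries differed from each other in a way that followed transcript length, and Onecut2 and Prox1 are long transcripts. Onecut2 has 16234 exonic bases in GENCODE M21, more than 98.1% of the genes tested, and Prox1 has 8390, more than 85.3%. Expressed genes (mean of 1 CPM or more) were sorted into 10 bins of exon length, and each library was set against the mean of the other libraries of its group. In EPZ011989 replicate 2 the median deviation (log2 CPM) ran from -0.36 in the bin of shortest genes to 0.46 in the bin of longest genes. In EPZ011989 replicate 4 it ran from 0.35 to -0.35. DMSO replicates 1 and 5 had the same opposite trends at a smaller size, from -0.19 to 0.18 and from 0.19 to -0.19.

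Onecut2 deviated in the direction of its length bin in 8 of the 9 libraries and by more than the bin's median in each of these, EPZ011989 replicate 1 being the exception. In EPZ011989 replicate 2 its deviation was 1.15 on the log2 scale, above 92.5% of the genes in its bin, and in replicate 4 it was -0.85, with 6.11% of the bin lower. Prox1 also deviated with its bin in 8 of 9 libraries, in 6 of them by more than the median. It deviated by 0.70 in replicate 2, where the median of its bin was 0.27, and by -0.46 in replicate 4, where the median was -0.22. After each library's trend with length was removed, Onecut2 stood at 40.5 to 45.5 CPM in DMSO and at 46.5, 64.8, 45.9 and 38.1 CPM in EPZ011989 replicates 1 to 4. Prox1 then stood at 57.3 to 70.6 CPM in DMSO and at 69.4, 88.4, 66.5 and 62.1 CPM. The SD of Onecut2 between EPZ011989 libraries fell from 0.63 to 0.32 on the log2 scale, and that of Prox1 from 0.37 to 0.22. Replicate 2 was still the highest library for both. The log2 fold changes were 0.19 ± 0.12 (SE) for Onecut2 (adjusted p = 0.301, edgeR) and 0.13 ± 0.10 for Prox1 (adjusted p = 0.386), and without replicate 2 as well they were 0.02 ± 0.08 and 0.01 ± 0.07.

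**Figure D3:**
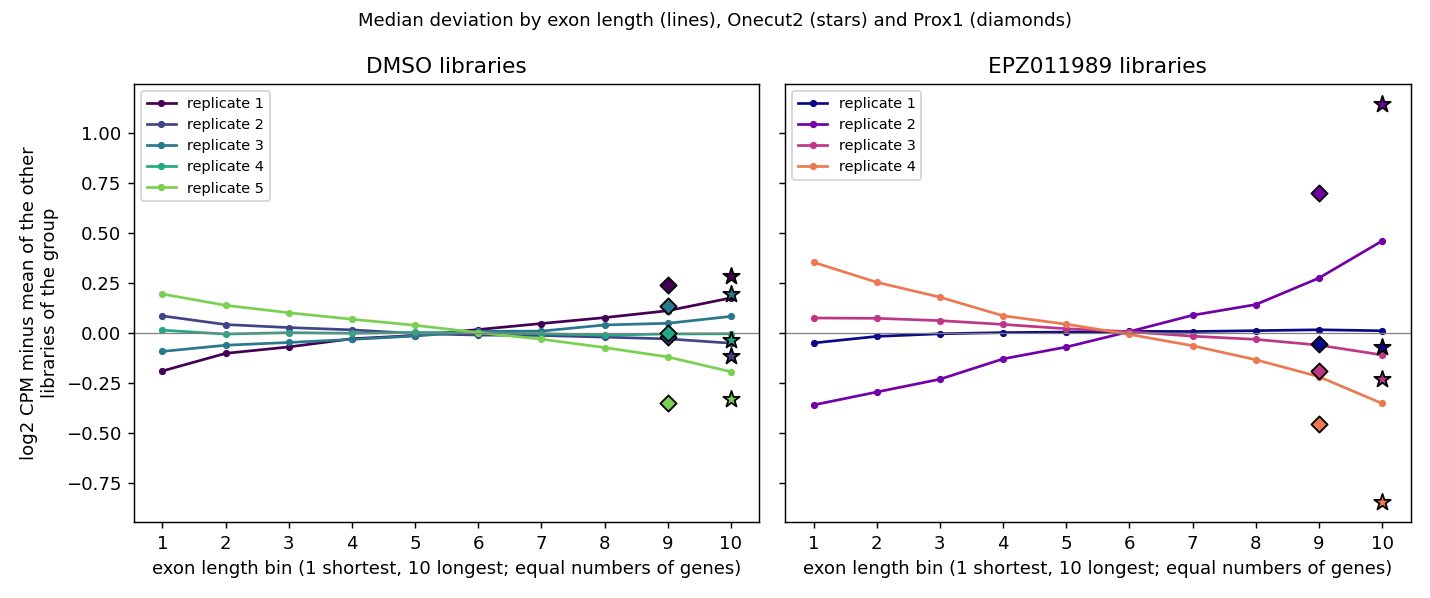
Lines give, for each library, the median over genes of log2 CPM minus the mean of the other libraries of its group, by bin of exon length from 1 (shortest) to 10 (longest); stars are Onecut2 (bin 10) and diamonds Prox1 (bin 9). Onecut2 lies at 1.15 in EPZ011989 replicate 2 and at -0.85 in replicate 4, outside the line of its library in both.

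Onecut2 and Prox1 moved together over the 9 libraries. Their log2 CPM values had Pearson's r = 0.980 and Spearman's rho = 0.967, and r = 0.970 over the 7 libraries left without EPZ011989 replicates 2 and 4. With the length trend removed, r was 0.938 and rho 0.867 over all 9, EPZ011989 replicate 2 included. These are descriptions of libraries that share the length trend, and no test was made. Of 11016 genes compared with Onecut2, the most similar were Ccdc88a (r = 0.993), Zdbf2 (r = 0.993) and Zbtb41 (r = 0.992), with Prox1 at rank 54. The genes most similar to Prox1 were Bbx (r = 0.996), Ino80d (r = 0.995) and Aff2 (r = 0.995), with Onecut2 at rank 24. All 6 were longer than 79.5% of tested genes.

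Levels of different genes can be compared only per length. On the scale of CPM per kilobase of exon, Prox1 was at 7.87 ± 0.937 in DMSO and 8.64 ± 2.41 with EPZ011989, above 59.8% and 62.4% of tested genes. Onecut2 was lower, at 2.68 ± 0.362 and 3.16 ± 1.497, above 38.5% and 39.7% of tested genes. The ranges did not overlap in either group, since the lowest Prox1 library was at 6.44 in DMSO and 6.64 with EPZ011989 and the highest Onecut2 library at 3.11 and 5.32. On the same scale Foxa2, a forkhead partner of these factors throughout endoderm, was at 43.6 ± 2.61 in DMSO, above both. Exon length here is the union over all annotated transcripts, so a gene that uses a short form is understated.

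Hnf4a (chromosome 2, 163506808 to 163572910, plus strand) had deposited counts of 4, 0, 6, 0 and 4 in DMSO replicates 1 to 5. In EPZ011989 replicates 1 to 4 the counts were 14, 5, 7 and 9. Among small counts in the deposited table, 1 was the most frequent, with further peaks at 4 and 8. If each fragment added about 4, which counts of 1 to 3 do not follow, these values stand for 0 to a few fragments per library. Every EPZ011989 library had a count and 2 DMSO libraries had none, but replicate 2 lay below the highest DMSO library and the groups overlapped. Only EPZ011989 replicate 1 reached the floor of 12 counts (3 fragments on this reading), which covers counting error only. Hnf4a did not pass the filter on low counts and was not tested, and with no filter it was not called (adjusted p = 0.404, edgeR).

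Hnf4g (chromosome 3, 3508030 to 3658052, plus strand) had a count of 5 in DMSO replicate 4, a count of 9 in EPZ011989 replicate 1 and 0 in the other 7 libraries. It was not tested either, and with no filter it was not called (adjusted p = 0.834, edgeR). No ratio of Hnf4g to Hnf4a was computed at this level. Onecut1 (chromosome 9, 74861921 to 74891781, plus strand) had 0 counts in all 9 libraries. At the floor of 12 counts its level could still be up to 0.158 to 0.203 CPM, depending on the library. Onecut2 was thus the ONECUT gene detected in every library, and the ratio of Onecut2 to Onecut1 has no defined value here. Onecut3, the remaining ONECUT gene, named here after its values were seen, had 0 counts in all 5 DMSO libraries and 20, 0, 0 and 11 in EPZ011989 replicates 1 to 4.

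Genes that overlap the 5 were also read, because the sources used here do not give whether counting used strand. A long noncoding gene starting opposite Prox1 (Prox1os in GENCODE M21, listed in the table as Gm17566, chromosome 1, 190170296 to 190217276) shares 133 exonic bases with Prox1 on the other strand. It was at 0.704, 0.663, 0.761, 0.760 and 0.800 CPM in DMSO and at 1.76, 1.17, 1.15 and 1.68 CPM with EPZ011989. All 4 EPZ011989 libraries lay above all 5 DMSO libraries, a log2 fold change of 0.96 ± 0.23 (SE, adjusted p = 0.0113, edgeR), and without EPZ011989 replicate 1 the call was lost (adjusted p = 0.0528). EPZ011989 replicate 2, the highest for Prox1, was the second lowest of its group for Gm17566. Reads of the shared bases cannot be assigned to a strand here. Hnf4aos, opposite Hnf4a, and Gm20649, which shares 2171 exonic bases with Onecut1, had 0 counts in all 9 libraries.

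Among 11 tested genes of a list of 16 partner transcription factors, 5 rose and 1 fell, beside 16.2% and 7.96% of all genes tested. Their median log2 fold change was 0.21, beside 0.03 over all genes tested. Rxra, a nuclear receptor that dimerizes with many others but not with HNF4A, rose from 41.2 ± 2.71 to 59.9 ± 5.38 CPM (adjusted p = 6.56e-04, edgeR), and Ppara, a fatty acid receptor, from 0.648 ± 0.239 to 1.60 ± 0.599 CPM. Prox2, the paralog of Prox1, rose from 2.35 ± 0.272 to 4.15 ± 0.674 CPM, with no overlap between groups (adjusted p = 0.00282), and its exons overlap those of an antisense gene by 643 bases. Nr2f1, an orphan receptor that competes for HNF4 sites, fell from 33.7 ± 2.18 to 21.2 ± 1.45 CPM. Its paralog Nr2f2, named after its values were seen, did not fall with it. Nr2f2 was at 20.8 ± 1.31 and 21.5 ± 2.51 CPM and was not called (adjusted p = 0.752, edgeR). Foxa2 was at 103 ± 6.19 and 107 ± 8.89 CPM and was not called (adjusted p = 0.676). Foxa3 and Rxrg, the other risers, are named after their values were seen: each had 4 of 5 DMSO libraries at 0 and passed the filter only through the EPZ011989 libraries. The tally and the median of the partner list include both and are thus no support for a rise of the list. Of 13 coregulators of nuclear receptors, all tested, 1 rose (Ppargc1b, from 1.16 ± 0.180 to 2.01 ± 0.430 CPM) and 0 fell. Its more abundant paralog Ppargc1a, named after its values were seen, was at 157 ± 17.7 and 135 ± 35.7 CPM. Ppargc1a was not called (adjusted p = 0.366, edgeR).

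Liver and gut genes known to depend on HNF4A were mostly low. Ttr, Rbp4, Mttp (42.0 ± 4.21 CPM in DMSO) and Gys2 (12.4 ± 1.55 CPM in DMSO) were among the exceptions. For each list of this paragraph, the shares over all genes tested were 16.2% higher and 7.96% lower. Of 31 secreted liver proteins 17 were tested, and 2 rose and 0 fell (median log2 fold change 0.36). Trf, which encodes transferrin, rose from 0.316 ± 0.261 to 1.57 ± 0.207 CPM, and 2108 of its exonic bases are shared with Gm20425 on the same strand. Gm20425 was at 0.583 ± 0.817 CPM in DMSO and at 0 with EPZ011989, so the division of reads between Trf and Gm20425 is uncertain. Mttp, which loads lipid onto apolipoprotein B, rose from 42.0 ± 4.21 to 54.0 ± 7.38 CPM (adjusted p = 0.0283, edgeR), and Trmt10a, which shares 457 exonic bases with it on the other strand, was at 17.8 CPM in both groups. The Mttp call was lost without DMSO replicate 2, 3 or 5 (adjusted p of 0.0641, 0.0789 and 0.0683) and without EPZ011989 replicate 1 or 3 (0.0797 and 0.0603). The most abundant of these genes, Ttr and Rbp4, which carry thyroid hormone and retinol in plasma, were not called. Ttr had 1554 ± 147 CPM in DMSO libraries against 1304 ± 298 CPM in EPZ011989 libraries (adjusted p = 0.246), and Rbp4 at 1559 ± 164 and 1290 ± 262 CPM (adjusted p = 0.177), each with 3 of 4 treated libraries below all DMSO libraries. Of 18 metabolic liver genes 7 were tested, and Cps1 of the urea cycle (0.107 ± 0.0758 to 1.23 ± 0.264 CPM, past the filter only through the EPZ011989 libraries) and Cyp27a1 of bile acid synthesis (1.74 ± 0.423 to 4.46 ± 0.906 CPM) rose. Gys2, the liver glycogen synthase, fell from 12.4 ± 1.55 to 8.86 ± 1.01 CPM. Of 18 brush border genes 5 were tested, and 3 rose and 0 fell. The risers were Myo1a, a microvillus motor (0.997 ± 0.253 to 2.35 ± 0.294 CPM), Fabp2, a fatty acid carrier (0.763 ± 0.221 to 1.71 ± 0.442 CPM), and Myo7b. Myo7b is named after its values were seen and passed the filter only through the EPZ011989 libraries, so its place in this tally is no support for a rise. Without EPZ011989 replicates 2 and 4 together the calls of Fabp2 (adjusted p = 0.128, edgeR), Gys2 (0.0605) and Ppargc1b (0.139) were lost.

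Markers of cell types of liver, gut and pancreas, and of other lineages, were read beside the members. Beside each tally, 16.2% of all genes tested were higher and 7.96% lower. The 10 hepatocyte markers summed to 8.42 to 16.2 CPM in DMSO and 16.2 to 19.5 CPM with EPZ011989, none was at 0 in every library, and Alb, the most abundant of them, was at 8.62 ± 2.03 and 8.16 ± 0.666 CPM. Of 9 tested, 3 rose (Afp, Cps1 and Trf) and 0 fell, but Afp and Cps1 passed the filter only through the EPZ011989 libraries, where they were high. The 7 enterocyte markers summed to 2.01 to 3.63 and 3.37 to 3.81 CPM, with Alpi and Cdh17 at 0 in every library, and 1 of 5 tested rose (Fabp2). The 6 acinar markers were at 8.999 to 13.4 and 5.88 to 7.96 CPM in sum, with Ptf1a, Amy2a5 and Prss2 at 0, and the 1 tested (Cela1) fell. Levels of the remaining lineages are given in the same order, DMSO first. The 6 duct markers, a list that holds Sox9 (the 1 riser of 4 tested), summed to 13.4 to 17.4 and 27.7 to 32.5 CPM, with Cftr at 0, and the 5 fibroblast markers, led by Pdgfra, to 6.38 to 8.69 and 27.4 to 38.9 CPM. All 3 tested rose, of which Col1a1 and Thy1 passed the filter only through the EPZ011989 libraries, while Dcn and Col3a1 did not pass it. The 3 endothelial markers summed to 0.0969 to 0.309 and 0.393 to 1.35 CPM, with 1 of 2 tested higher (Kdr, at 0 in every DMSO library and tested only through the EPZ011989 libraries). The 2 leukocyte markers measured stood at 0.872 to 1.31 and 0.816 to 1.29 CPM, with 0 of 1 tested called. The part of other cells in the rises above was not tested, and in bulk RNA fewer cells of a type and less RNA per cell cannot be told apart.

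**Figure D4:**
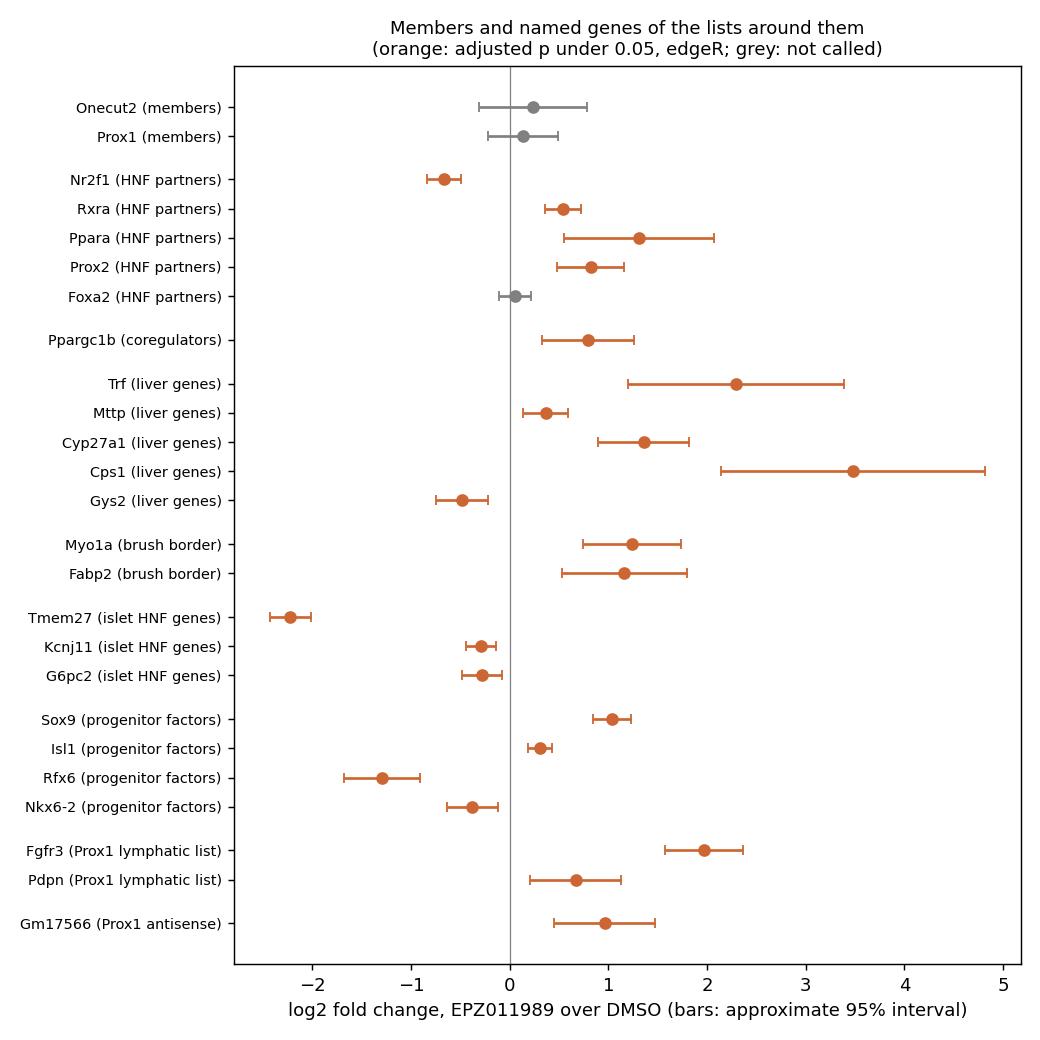
Log2 fold change, EPZ011989 over DMSO, with approximate 95% intervals, for Onecut2 and Prox1 and for named genes of the lists around them; orange marks an adjusted p under 0.05. Onecut2 (0.24) and Prox1 (0.14) are grey, while Tmem27 (-2.22) and Rfx6 (-1.29) lie below 0 and Gm17566 (0.96) above.

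In islet genes known to depend on hepatocyte nuclear factors, 3 of the 5 tested (of 8 listed) fell and 0 rose, with a median log2 fold change of -0.29. Over all genes tested 7.96% fell and 16.2% rose. Tmem27 (collectrin), a membrane protein of islet and kidney cells, stood at 18.8 to 21.3 CPM in DMSO and at 3.94 to 4.76 CPM with EPZ011989, 0.214 times the DMSO level (adjusted p = 2.64e-07, edgeR). Kcnj11, the pore of the ATP-sensitive potassium channel, fell from 55.9 ± 3.36 to 45.7 ± 2.13 CPM (adjusted p = 0.0102). G6pc2, the islet glucose-6-phosphatase, fell from 20.5 ± 1.58 to 16.9 ± 1.48 CPM (adjusted p = 0.0454). The G6pc2 call was lost without DMSO replicate 3, 4 or 5 (adjusted p of 0.0809, 0.0738 and 0.0672) and without EPZ011989 replicate 3 (0.129). It was also lost without a low-count filter (0.0539), after removal of the length trend (0.0907), with upper-quartile factors (0.106) and with library size as the only scaling (0.0926).

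Progenitor and endocrine transcription factors, the network in which ONECUT1 and PROX1 act, moved in both directions. Of 13 tested among 18, 3 rose and 2 fell, with a median log2 fold change of 0.15. For this list and the lymphatic list below, the shares over all genes tested were 16.2% higher and 7.96% lower. Sox9, a duct and progenitor factor, rose 2.05-fold (10.8 ± 0.940 to 22.2 ± 1.38 CPM) and Isl1, a factor of all islet lineages, 1.24-fold. Nkx2-2, the other riser, is named after its values were seen, and 278 of its exonic bases are shared with Nkx2-2os on the other strand. Rfx6, which islet cells need to form, fell to 0.408 times its DMSO level (44.2 ± 1.78 to 18.04 ± 5.86 CPM). Nkx6-2, a homeodomain factor of the NKX6 family, fell from 30.7 ± 3.21 to 23.6 ± 3.47 CPM (adjusted p = 0.0362, edgeR), and 246 of its exonic bases are shared with Inpp5a on the other strand. The Nkx6-2 call was lost without DMSO replicate 2, 4 or 5 (adjusted p of 0.0835, 0.0797 and 0.0798) or EPZ011989 replicate 1 or 3 (0.0823 and 0.0654), and with upper-quartile factors (0.0848). In a list of 12 lymphatic genes known to follow PROX1, 4 were tested and 2 rose, Fgfr3, a growth factor receptor (1.05 ± 0.110 to 4.12 ± 0.838 CPM, adjusted p = 2.00e-05, edgeR), and Pdpn, a membrane mucin (2.04 ± 0.508 to 3.23 ± 0.496 CPM, adjusted p = 0.0395). The Pdpn call was lost without any 1 of 7 libraries (DMSO replicate 1, 2, 3 or 5 or EPZ011989 replicate 2, 3 or 4), at adjusted p of 0.0533 to 0.102, with no filter (0.0508) and without EPZ011989 replicates 2 and 4 together (0.188). Fgfr3 exons overlap those of an unnamed antisense gene by 998 bases.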

How the data were processed

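The authors deposited whole-number gene counts per library (33212 rows), used here, and a second table of those counts divided by 1 factor per library, a linear signal that served only as an alternative. Per the submitters' processing notes, HISAT2, StringTie, DESeq2 and the build mm10 were used, with no role or version. Whether reads were counted by strand is not given in the sources used here. Small counts were most often 1, 4 and 5, and counts were not taken as independent reads. The floor was set at 12 counts (3 fragments of about 4 counts). This reading is uncertain, since counts of 1 to 3 do not follow it.

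Counts were filtered with filterByExpr, scaled by TMM and tested with the edgeR 4.0.16 quasi-likelihood F test (R 4.3.3, robust fit, all 9 libraries, two-sided, Benjamini-Hochberg over 14754 genes, calls under 0.05), checked on simulated data. SE is the log2 fold change divided by the root of F, and intervals use it. Alternatives were RLE, upper-quartile and no scaling factors, other filters, DESeq2 1.42.0 and limma 3.58.1 (voom, and log2 of the normalized value plus 1 or 10). Others were counts divided by 4, a replicate block (replicates 1 to 4 only, without DMSO replicate 5), and libraries left out. Removal of the length trend (lowess over log2 exon length) was chosen after seeing the data.

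Genes and lists were chosen with earlier results of these data known. Named were the 5 members, up to 4 called genes per list with at least 1 CPM and no Gm or Rik name, the 3 genes most correlated with each tested member, overlapping genes, and cell type markers. Some genes of these lists are not reported here and were left out of the list counts. Positions and lengths come from GENCODE M21 (GRCm38, the assembly of mm10) and promoter sequences from RefSeq (GRCm38.p6).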

Additional observations from a re-analysis of the deposited data

Results flagged for a closer look

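A single library stood apart from the rest of its group in 3 of 78 groups of values examined, by a gap that is large for the group's range; chance gives about 1 such group in 20. Hnf4g was at 0.0844 CPM in DMSO replicate 4 and at 0.119 CPM in EPZ011989 replicate 1, and at 0 in every other library, so both values are single low counts. G6pc2 was at 14.7 CPM in EPZ011989 replicate 3, below the other 3 EPZ011989 libraries.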

How the results depend on the processing

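Onecut2 and Prox1 were called in none of the 23 other settings, with adjusted p of 0.198 to 0.939 and 0.320 to 0.977. Their log2 fold changes were above 0 in 22 of these and below 0 without EPZ011989 replicate 2 (-0.15 and -0.081). Leaving out 1 library at a time gave -0.15 to 0.39 for Onecut2 and -0.081 to 0.22 for Prox1. No fold change is given for Hnf4a, Hnf4g and Onecut1, whose group means were at or under the floor. Over all genes, 2388 were higher and 1174 lower. The count of higher genes was 1525 with a replicate block, and the count of lower genes 527 with the block, 776 with upper-quartile factors and 2454 with the length trend removed and without EPZ011989 replicate 2. Leaving out 1 library gave 1861 to 2939 higher and 781 to 2377 lower genes, the extremes for lower genes being without EPZ011989 replicates 3 and 2. The cause was not tested. Same-numbered libraries did not deviate together (r of -0.0985 to 0.0302 across genes, against -0.232 to 0.211 for other pairs). Whether the numbers mark shared cultures or days cannot be told from this. The block fit used replicates 1 to 4 only and so left out DMSO replicate 5. Onecut2 and Prox1 then had log2 fold changes of 0.05 and 0.01, against 0.15 and 0.05 without DMSO replicate 5 alone. Over 23 other genes none reversed: 484 values kept the call or its absence and 43 values, from 11 genes, fell short of it. Of these, 10 were with the block (Ppara, Ppargc1b, Mttp, Gys2, Kcnj11, G6pc2, Isl1, Nkx6-2, Pdpn and Gm17566). The planned comparison of Hnf4g with Hnf4a and of Onecut2 with Onecut1 was not run, since a library was at 0. Counts near or under a floor read as about 3 fragments limit what can be said of Hnf4a, Hnf4g and Onecut1.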
